A study of Mus musculus with 6 samples.

Results

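The replication-dependent histone genes are the clustered genes for linker histone H1 and the core histones H2A, H2B, H3 and H4 that supply new nucleosomes during DNA synthesis. They were taken from the deposited count table as the rows whose Entrez identifier maps to a symbol of the Hist1, Hist2, Hist3 or Hist4 clusters (newer names H1f1 to H1f5, H2ac, H2bc, H3c and H4c), without pseudogenes. This gave 66 genes of the 27179 identifiers in the table: 5 for H1, 18 for H2A, 18 for H2B, 12 for H3 and 13 for H4. By cluster, 53 lie in Hist1 on chromosome 13, 10 in Hist2 on chromosome 3, 2 in Hist3 on chromosome 11 and 1 in Hist4 on chromosome 6. As a contrast, 20 variant histone genes, whose products are deposited largely outside DNA replication, were described beside them.

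The libraries came from mouse embryonic stem cells of the ES-E14TG2a background, grown on gelatin in 2i medium (inhibitors of the kinases MEK and GSK3) with the cytokine LIF. Both groups carried a FLAG-tagged Trim71, which binds RNA and belongs to the TRIM-NHL proteins: 3 libraries, R783H A to C, held the R783H change in it and 3, WT A to C, did not. RNA was selected with oligo(dT), which captures transcripts through a poly(A) tail. What the letters stand for (cultures, clones or technical repeats) is not in the labels, so p-values measure the spread between these libraries, which may be technical.

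Most replication-dependent histone mRNAs end, as textbook knowledge, in a conserved stem-loop instead of a poly(A) tail. The stem-loop is bound by the protein Slbp, cut with the help of the U7 small nuclear RNA, and used in translation and in decay at the end of S phase. A part of these genes also makes longer, polyadenylated transcripts, in particular outside the cycle. In these oligo(dT)-selected libraries the 66 genes took 0.00577% to 0.009998% of all counts of a library.

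The stem-loops are shown because they mark the 3′ end that sets these genes apart. In GENCODE M21 transcripts on GRCm38 (mm10, the build the submitters' processing notes name), 45 of the 66 genes held a stem-loop of 16 nt, 21 to 58 nt after the stop codon, in 8 different sequences. The commonest was carried by 26 genes (3 for H1, 10 for H2A, 8 for H2B and 5 for H3), the second by 7 H4 genes, and the third by 5 genes for H2B and H3. The following lines give 1 gene for each of the 5 sequences found in more than 1 gene, 5′ to 3′ on the transcript, with the stem-loop in capitals and up to 5 flanking bases.
Hist1h2ap: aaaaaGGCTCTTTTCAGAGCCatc
Hist1h4d: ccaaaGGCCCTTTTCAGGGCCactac
Hist1h3c: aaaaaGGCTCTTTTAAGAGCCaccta
Hist1h4i: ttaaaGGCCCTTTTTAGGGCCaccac
Hist1h4b: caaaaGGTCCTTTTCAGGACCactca
The capitals lie at chr13:21833029-21833044 on the minus strand for Hist1h2ap, chr13:23581950-23581965 (plus) for Hist1h4d, chr13:23745047-23745062 (minus) for Hist1h3c, chr13:22040966-22040981 (minus) for Hist1h4i and chr13:23757366-23757381 (plus) for Hist1h4b. The other 21 genes had no stem-loop in their annotated transcripts, and the annotation of 15 of them ended within 5 nt of the stop codon.

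Total counts ran from 27807385 to 29079670 in the R783H libraries and from 20894277 to 25174121 in WT, so each R783H library was deeper than each WT library. Levels are given as CPM, TMM-scaled counts relative to the library size, and 3 counts, taken as the floor of detection, were 0.0998 to 0.148 CPM. Trim71 itself had 129 to 152 CPM in R783H and 131 to 159 CPM in WT, and was not called (log2 change 0.03, SE 0.08); the change of 1 amino acid is not a check that gene counts can make. Of the 16 listed stem cell markers all were tested and their summed level was 8912 to 9078 CPM in R783H and 9373 to 9489 CPM in WT, without overlap. Of these markers 7 were called lower and 3 higher, with log2 changes from -1.11 to 0.30. Listed fibroblast markers summed to 12.8 to 13.2 CPM in R783H and 11.6 to 12.7 CPM in WT, with Twist2 at 0 in all libraries. Of the 10 fibroblast markers 5 were tested, 1 called lower and 1 higher, with log2 changes from -2.74 to 0.38. The 12 listed markers of differentiated cells summed to 58.1 to 64.8 CPM in R783H and 78.2 to 81.4 CPM in WT without overlap (log2 change -0.40), with 4 of 8 tested lower and 3 higher, and their part in the histone values was not tested. Of 14199 genes tested with edgeR's quasi-likelihood test, 30.9% were called lower and 33.5% higher in R783H at a Benjamini-Hochberg adjusted p under 0.05, a background in which any single call is common.

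Summed over all 66 genes, the replication-dependent histones were lower in R783H. The sums were 60.1, 57.3 and 56.0 CPM in R783H A, B and C and 103.4, 96.8 and 89.7 CPM in WT A, B and C. All 3 R783H libraries lay below all 3 WT libraries, with means of 57.8 ± 2.10 and 96.6 ± 6.85 CPM (SD, n = 3 each). The ratio was 0.599-fold (log2 -0.74; exact permutation test, two-sided, p = 0.1, the smallest p that 3 against 3 libraries allow). Behind these values were 1808, 1628 and 1660 counts in R783H and 2089, 2376 and 1914 counts in WT. In bulk RNA, fewer cells in S phase and less histone RNA per cell cannot be told apart.

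Each of the 5 histone types was lower in R783H without overlap between the groups. The nucleosome core histone H4 had 2.93, 3.52 and 3.27 CPM in R783H against 6.68, 7.54 and 8.99 CPM in WT, a ratio of 0.421-fold. Its partner in the core tetramer, H3, had 2.76, 2.85 and 3.31 CPM against 4.65, 5.50 and 5.95 CPM, or 0.555-fold. The linker histone H1, which binds DNA between nucleosomes, had 4.42, 4.93 and 4.59 CPM against 8.41, 8.07 and 7.92 CPM, or 0.571-fold. H2A and H2B, which form the outer dimers of the nucleosome, had the changes nearest to 1. For H2A the sums were 43.7, 40.3 and 38.0 CPM against 73.7, 66.6 and 56.6 CPM, or 0.622-fold. For H2B they were 6.32, 5.71 and 6.85 CPM against 9.90, 9.17 and 10.2 CPM, or 0.644-fold. Each of these 5 comparisons gave p = 0.1 in the exact two-sided permutation test.

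**Figure D1:**
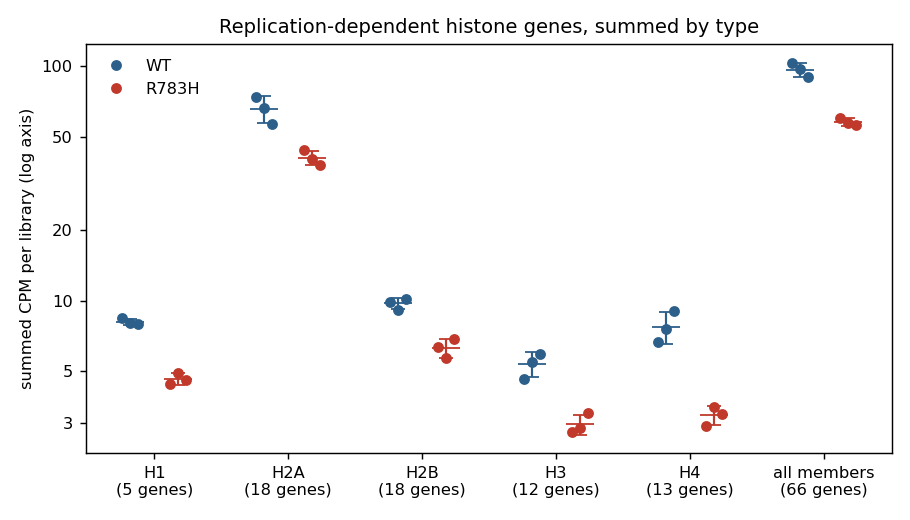
Summed CPM of each histone type and of all 66 genes (log axis), for the 3 WT and 3 R783H libraries; points are libraries, horizontal bars means and whiskers SD. In each type the 3 R783H libraries sit below the 3 WT libraries, from 43.7 CPM or less against 56.6 CPM or more in H2A to 3.52 CPM or less against 6.68 CPM or more in H4.

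The 5 types were compared in 10 pairs, and H4 had the largest change. The log2 ratio of R783H to WT was 0.44 lower in H4 than in H1, 0.56 lower than in H2A, 0.62 lower than in H2B and 0.40 lower than in H3. In each of these 4 pairs the per-library ratios of the 2 types did not overlap between the groups (exact permutation p = 0.1, 0.25 after Benjamini-Hochberg adjustment over the 10 pairs, so none passes 0.05). In the other 6 pairs the groups overlapped, with p from 0.3 to 0.9. H2A took 63.2% to 72.7% of the members' counts in a library and H4 4.87% to 10.03%, the latter with its 2 highest shares in WT B and WT C.

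Gene by gene, 33 of the 66 passed the filter on low counts and 33 did not. Of the 33 tested, 24 were called lower and 1 higher, against 30.9% and 33.5% of all tested genes. The median log2 change was -0.90, against 0.03 over all tested genes. The groups did not overlap in 22 tested genes, 21 lower and 1 higher in R783H, where 33.1% of all tested genes lay lower and 35.0% higher without overlap. Of the tested genes, 3 (Hist1h2bp, Hist1h3i and Hist1h4b) passed the filter only through their WT libraries, with no R783H library over it. Hist1h1b, Hist1h1d, Hist1h1e, Hist1h2ad, Hist1h2bg, Hist1h2bk, Hist1h4a, Hist2h2aa2 and Hist4h4 had all WT libraries over it but not all R783H libraries. All of these genes needed their WT libraries to pass, and all were called lower. In the 17 tested genes with all 6 libraries over the filter, 12 were called lower and 1 higher. The counts therefore describe the genes that passed and not all 66. With a filter on the mean over all 6 libraries, which does not see the groups, 22 of 30 were called lower and 1 higher.

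Histone genes are thinly covered here, and genes of like level are a narrower comparison than all genes. Among the 7345 other genes in the range of mean CPM of the tested members, 21.9% were called lower and 34.9% higher. Among the 3064 other tested genes under 3 CPM, 17.1% were called lower and 26.8% higher. The longest annotated transcript was over 1000 nt in 18 of the 66 members and 9 of the 33 tested, and shorter in the others. Of 543 other genes with a longest transcript of at most 1000 nt, 38.1% were called lower and 20.6% higher. In the 151 genes that were both that short and under 3 CPM, 12.6% were called lower and 18.5% higher, with a median log2 change of 0.02.

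**Figure D2:**
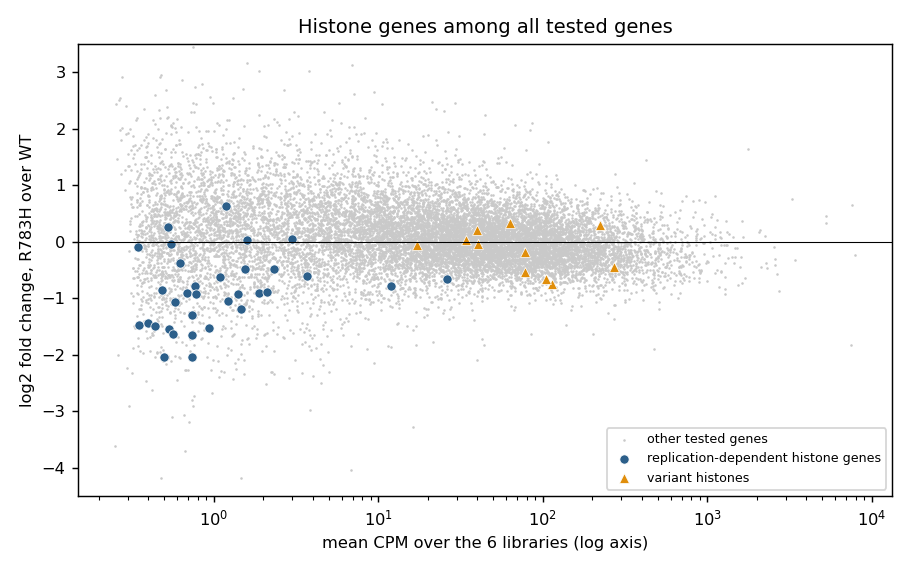
Log2 fold change of R783H over WT against mean CPM over the 6 libraries (log axis) for all 14199 tested genes; blue circles are the 33 tested replication-dependent histone genes, orange triangles the 11 tested variant histones, and 7 other genes lie outside the plotted range. The histone circles sit mostly under 3 CPM and below 0, with a median of -0.90.

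All 5 genes for the linker histone H1 were tested and all 5 fell, without overlap between the groups in any of them. Hist1h1c (H1f2, Entrez 50708), a somatic H1 present in most cell types, had 2.79, 3.24 and 2.70 CPM in R783H and 4.90, 4.36 and 4.03 CPM in WT, a log2 change of -0.60 (SE 0.13, edgeR adjusted p = 0.0023). Hist1h1a had 0.765, 0.881 and 0.742 CPM in R783H and 1.39, 1.83 and 1.69 CPM in WT, or -1.04 (SE 0.21). The 3 WT libraries of both genes stood above every R783H library. Hist1h1d had 0.333, 0.317 and 0.472 CPM in R783H and 0.693, 0.611 and 1.08 CPM in WT, or -1.06 (SE 0.33). Hist1h1e had 0.366, 0.352 and 0.304 CPM in R783H against 0.643, 0.530 and 0.703 CPM in WT, or -0.86 (SE 0.30). The fifth gene, Hist1h1b, fell by 1.499 (SE 0.42) and rested on 4 to 18 counts per library. Calls at such depth can hang on 1 library: Hist1h1d was not called without WT C (-0.79), nor Hist1h1e without R783H C (-0.79), WT A (-0.84) or WT C (-0.77), or with DESeq2. In total Hist1h1e lost the call in 5 of the 16 alternatives in which it was tested.

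H2A held most of the histone counts, and they sat in 2 genes. Hist1h2ap (H2ac24, Entrez 319171, chr13:21833024-21833475, minus strand) took 32.5% to 36.9% of all members' counts in a library, and Hist1h2ao (H2ac23, Entrez 665433) took 11.0% to 19.1%. Hist1h2ap had 20.1, 20.01 and 20.7 CPM in R783H and 34.6, 31.5 and 30.3 CPM in WT. Its groups were far apart for their spread, and it fell by 0.67 on the log2 scale (SE 0.07, edgeR adjusted p = 6.0e-06). With the offset for transcript length and GC content its change was -0.30, still called lower. Hist1h2ao had 11.5, 7.96 and 6.95 CPM in R783H and 17.0, 18.3 and 9.88 CPM in WT. It was called lower (log2 change -0.78, SE 0.22), although WT C was below R783H A, and lost the call without WT B (-0.61) and with the length and GC offset (-0.42). Per kilobase of the RefSeq gene span, the mean levels in WT were 71.1 CPM for Hist1h2ap and 27.3 CPM for Hist1h2ao, against 6.11 CPM for Hist1h1c. Without these 2 genes, the sum over the other 64 was 28.4 to 29.4 CPM in R783H and 47.0 to 51.7 CPM in WT, a log2 change of -0.78.

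Of 13 tested H2A genes, 8 were called lower, 1 higher and 4 were not called. Hist1h2ae had 1.03, 1.69 and 1.65 CPM in R783H and 3.22, 1.96 and 3.05 CPM in WT, and fell by 0.90 (SE 0.24). Hist1h2an had 1.70, 3.38 and 0.709 CPM in R783H and 3.81, 1.47 and 2.86 CPM in WT; the libraries of both groups were mixed and it was not called (log2 change -0.47, SE 0.45). The other 5 H2A genes called lower had log2 changes of -1.65 (Hist2h2aa2), -1.53 (Hist1h2ad), -1.30 (Hist1h2ag), -1.19 (Hist1h2ab) and -0.92 (Hist1h2ak). Hist1h2ad was uneven within R783H, with 5, 6 and 31 counts against 39, 24 and 28 in WT. Not called were Hist1h2ai at -0.49, Hist2h2aa1 at -0.38 and Hist1h2ah at 0.03, each with overlapping groups. Without 1 library some of these calls turned: Hist1h2ad was not called without R783H A (-1.13) or WT A (-1.25) and was at -2.86 without R783H C, Hist1h2ai was called lower without R783H A (-0.68) or WT C (-0.67), and Hist1h2an without R783H B (-1.16). Hist1h2ak was not called in 2 of 17 alternatives, among them the length and GC offset (-0.50). Hist1h2ad was not called in 4 of the 16 in which it was tested.

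Hist3h2a (H2aw, Entrez 319162), an H2A gene of the Hist3 cluster on chromosome 11, was the single member called higher. It had 1.70, 1.41 and 1.21 CPM in R783H and 1.04, 0.734 and 1.03 CPM in WT, from 51, 40 and 36 against 21, 18 and 22 counts. All R783H libraries were above all WT libraries, with a log2 change of 0.64 (SE 0.23, edgeR adjusted p = 0.030). The call was lost with DESeq2 (0.61), without R783H A (0.49) and without WT B (0.47), and the log2 change lay between 0.47 and 0.74 over the 17 alternative settings. Its annotated transcript ran 1643 nt past the stem-loop and carried the polyadenylation signal AATAAA in its last 40 nt.

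**Figure D3:**
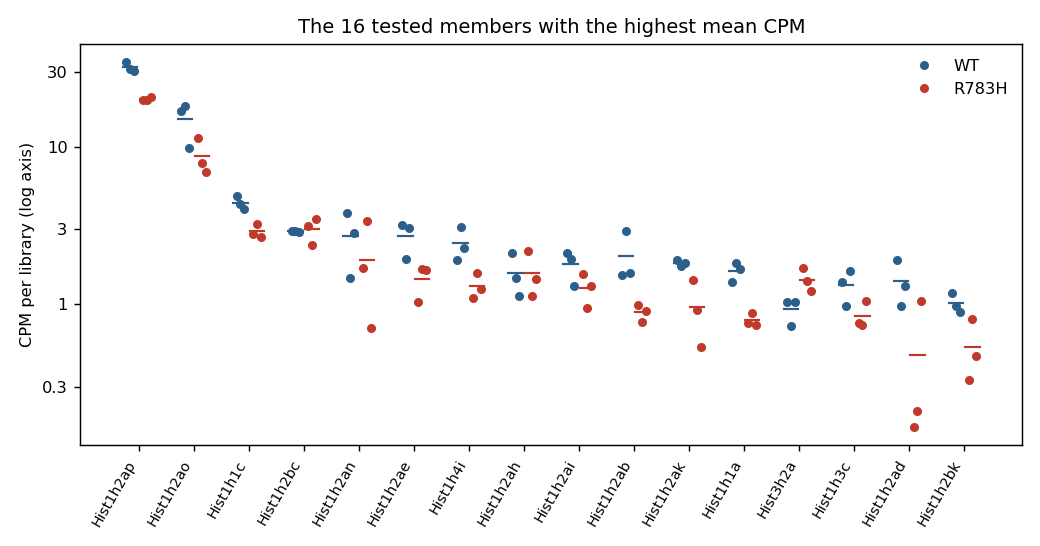
CPM per library (log axis) of the 16 tested replication-dependent histone genes with the highest mean CPM; points are the 3 libraries of a group and short lines their means. Hist1h2ap stands apart from the rest and its R783H points lie close together at 20.01 to 20.7 CPM, while Hist1h2an and Hist1h2ad spread widely within a group.

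Of 18 H2B genes only 6 were tested, of which 3 fell and 3 were not called. Hist1h2bg had 0.1995, 0.387 and 0.270 CPM in R783H and 1.14, 1.18 and 1.22 CPM in WT, the widest fall among tested members with a log2 change of -2.04 (SE 0.29, edgeR adjusted p = 8.4e-05). Hist1h2bk had 0.333, 0.810 and 0.472 CPM against 1.19, 0.978 and 0.890 CPM and fell by 0.92 (SE 0.32). Hist1h2bp fell by 1.48 (SE 0.51), but it passed the filter on low counts only through its WT libraries. Neither of these 2 calls was firm: Hist1h2bk was lost without R783H A (-0.68), R783H C (-0.85), WT A (-0.81) or WT B (-0.95), and Hist1h2bp without R783H A (-0.99), WT A (-1.51) or WT C (-1.35). Over all alternatives Hist1h2bk lost the call in 6 of 17. In contrast, Hist1h2bc, the H2B gene with the most counts, had 3.16, 2.40 and 3.51 CPM in R783H and 2.92, 2.93 and 2.90 CPM in WT. Its R783H libraries lay on both sides of the WT libraries, with a log2 change of 0.05 (SE 0.16). Hist2h2be had 0.798, 0.423 and 0.506 CPM in R783H against 0.693, 0.571 and 0.187 CPM in WT and was not called (log2 change 0.25, SE 0.42), as was Hist1h2bq at -0.09 (SE 0.45).

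For H3, 4 of 12 genes were tested and 3 of them fell. Hist1h3c had 0.765, 0.740 and 1.05 CPM in R783H and 1.39, 0.978 and 1.64 CPM in WT; its groups overlapped and its call was marginal (log2 change -0.63, SE 0.26, edgeR adjusted p = 0.049). Hist1h3e had 0.565, 0.599 and 0.540 CPM in R783H against 0.792, 1.14 and 0.984 CPM in WT, or -0.78 (SE 0.25). Hist1h3i had 0.266, 0.247 and 0.304 CPM against 0.643, 0.897 and 0.843 CPM, or -1.54 (SE 0.30), and passed the filter only through WT. In both genes every WT library was above every R783H library. Hist1h3g had 0.565, 0.564 and 0.506 CPM against 0.495, 0.774 and 0.375 CPM and was not called, at -0.03 (SE 0.32). The call of Hist1h3c was lost in 9 of 17 alternatives, among them without R783H A (-0.57), R783H B (-0.57), WT A (-0.60) or WT C (-0.46). That of Hist1h3e was lost in 3 of 17, among them without WT B (-0.65).

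All 5 tested H4 genes of the 13 fell, and none had overlapping groups. Hist1h4i had 1.10, 1.58 and 1.25 CPM in R783H and 1.93, 3.10 and 2.30 CPM in WT, or -0.91 (SE 0.22, edgeR adjusted p = 0.0036). Hist1h4d had 0.499, 0.528 and 0.405 CPM in R783H and 0.891, 0.815 and 0.984 CPM in WT, or -0.90 (SE 0.26). These 2 had the most counts of the H4 genes and were the least changed among those tested. Hist1h4a had 0.399, 0.106 and 0.304 CPM against 0.940, 0.571 and 1.08 CPM, or -1.63 (SE 0.41). Hist1h4b had 0.166, 0.106 and 0.304 CPM against 0.445, 0.530 and 1.45 CPM, or -2.03 (SE 0.55). It passed the filter only through WT, and its change was -1.33 without WT C, the highest library. Hist4h4, the H4 gene outside the large clusters, fell by 1.43 (SE 0.42) on 4, 4 and 11 counts against 10, 17 and 12, and was not called without WT B (-1.28). Hist1h4d was not called with DESeq2 (-0.93).

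**Figure D4:**
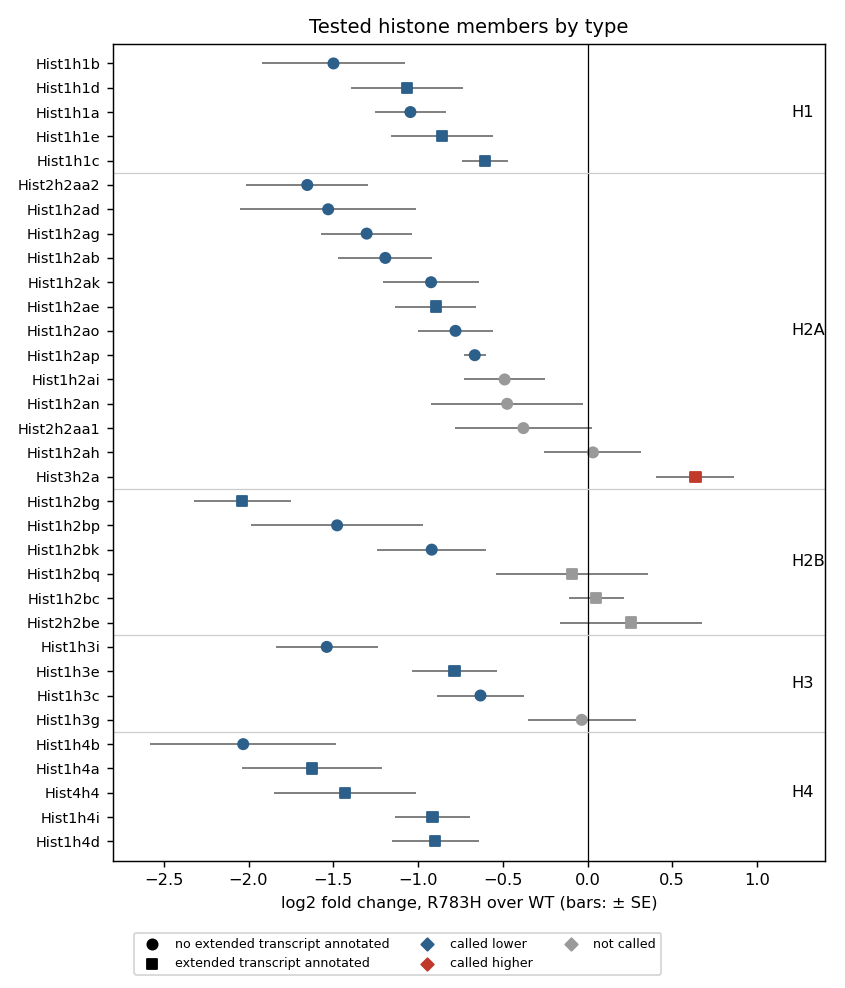
Log2 fold change of R783H over WT with its SE for the 33 tested members, grouped by histone type. Blue is called lower, red called higher and grey not called. Squares mark extended genes, with an annotated transcript at least 100 nt past the stem-loop, or 200 nt past the stop codon where none was found. All tested H1 and H4 genes are blue, while H2B splits into 3 genes from -2.04 to -0.92 and 3 from -0.09 to 0.25.

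The 33 untested genes had at most 17 counts in any library, and 2 of them, Hist1h2af and Hist1h2ba, had none. Their mean was higher in WT in 27 and higher in R783H in 4. In 13 the WT libraries were all above the R783H libraries, and in 0 the reverse. They summed to 2.96, 3.14 and 3.34 CPM in R783H and 7.52, 6.48 and 9.04 CPM in WT, with no overlap (0.413-fold, exact permutation p = 0.1).

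By cluster, the Hist1 sum was 52.4 to 56.6 CPM in R783H and 85.2 to 97.7 CPM in WT (log2 change -0.75), with 22 of 28 tested genes lower and 0 higher. The Hist2 cluster summed to 1.73, 1.97 and 1.99 CPM in R783H and 3.91, 4.12 and 2.81 CPM in WT (log2 change -0.91), with no overlap; 1 of its 3 tested genes was called lower. The 2 genes of Hist3 summed to 1.70, 1.44 and 1.28 CPM in R783H and 1.29, 0.734 and 1.12 CPM in WT, and the groups overlapped (exact permutation p = 0.2).

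The genes were split by how far their annotated transcripts run past the stem-loop or the stop codon. A gene was taken as extended where a GENCODE transcript ran at least 100 nt past the stem-loop, or at least 200 nt past the stop codon where no stem-loop was found; the second condition was added after the files had been seen. Of the 66 genes, 26 were extended, and 13 of these had AATAAA or ATTAAA in the last 40 nt of their longest extended transcript. A signal also stands in some transcripts of the other class, such as one of Hist1h2bp with AATAAA that ends 150 nt after the stop codon. Extended genes summed to 14.9, 14.6 and 15.5 CPM in R783H and 23.5, 22.0 and 23.4 CPM in WT (log2 change -0.61). The other 40 summed to 45.2, 42.7 and 40.6 CPM in R783H and 79.9, 74.8 and 66.3 CPM in WT (log2 change -0.78). Both classes were lower in R783H without overlap, and the difference between them, 0.16, was within the spread of the libraries (exact permutation p = 0.3). Without Hist1h2ap and Hist1h2ao in the second class, a choice made after seeing the values, the difference was 0.33, given without a test. Among tested genes, 10 of 14 extended genes were called lower and 1 higher, and 14 of 19 others were called lower and 0 higher.

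Members with long gene models had like sums in both groups, an observation made after their values were seen and therefore given without a test. In RefSeq, 6 members span more than 1000 nt (Hist1h2bc, Hist1h2be, Hist1h2bp, Hist1h2bq, Hist1h2br and Hist2h2be, all for H2B), and the other 60 span 375 to 911 nt. The 6 summed to 5.06, 3.77 and 5.23 CPM in R783H and 4.70, 5.18 and 4.92 CPM in WT, so the groups overlapped. Most of this sum came from Hist1h2bc, with 3.16, 2.40 and 3.51 CPM in R783H and 2.92, 2.93 and 2.90 CPM in WT. The untested Hist1h2be had a lower mean in R783H (0.283 against 0.462 CPM) and the untested Hist1h2br a higher one (0.284 against 0.191 CPM). Of the 4 tested among them, Hist1h2bp fell and Hist1h2bc, Hist1h2bq and Hist2h2be were not called.

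Copies of histone genes are so alike that reads can fit several of them. In the GENCODE annotation 48 members shared at least 98% identity over at least 100 nt with another gene, Hist1h2ap with 22 genes of which 5 are members. The exons of 24 members overlapped those of another gene in position, on either strand. How reads that fit several places were counted is not given in the sources used here, so values of single copies, H2A genes above all, are uncertain. The 48 genes with a near-identical copy summed to 51.8, 48.5 and 47.1 CPM in R783H and 87.5, 81.1 and 73.3 CPM in WT (log2 change -0.71). The 18 without one summed to 8.28, 8.88 and 8.91 CPM in R783H and 15.9, 15.7 and 16.4 CPM in WT (log2 change -0.88). In those 18, 10 were tested, 9 of which were called lower and Hist2h2be was not called.

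Promoters are shown because 24 of the 33 tested members were called lower, against 1 higher and 8 not called. A RefSeq promoter on GRCm38.p6 was matched for 61 of the 66 genes, and the 250 bases before the start were searched on both strands for 3 motifs of histone promoters. TATAAA, the TATA box, was in 47.5% of the 61 and in 14.3% of 27025 genes. CCAAT, the box bound by the factor NF-Y, was in 82.0% of the members and 37.5% of all genes. ATTTGCAT, the octamer bound by POU factors and known from H2B promoters, was in 23.0% of the members, all of them H2A (7 of 18) or H2B (7 of 16) genes, and in 1.81% of all genes. Windows of neighbouring genes on opposite strands overlap, so 1 match can count for 2 genes. The same octamer bases were counted for Hist1h2bg and Hist1h2ae, for Hist1h2bk and Hist1h2ah, and for Hist1h2aa and Hist1h2ba. Matches may overlap, and a match is a description of these letters only.
The 2 tested genes with the largest falls in the fit of all libraries differed in motifs, and both were picked by their falls. Hist1h4b passed the filter on low counts only through WT and was at -1.33 without WT C. Hist1h2bg had 1 R783H library over that filter. The last 100 bases before the starts of these 2 genes follow, motifs in capitals.
Hist1h2bg: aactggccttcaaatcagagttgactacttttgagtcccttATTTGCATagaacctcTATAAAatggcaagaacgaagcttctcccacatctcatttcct
Hist1h4b: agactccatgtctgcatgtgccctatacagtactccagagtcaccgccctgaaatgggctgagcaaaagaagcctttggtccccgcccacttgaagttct
The first lies at chr13:23571300-23571399 and the second at chr13:23756837-23756936, both on the plus strand. In Hist1h2bg the octamer and the TATA box stand in this stretch and CCAAT at 178 and 150 bases before the start, while in Hist1h4b none of the 3 was found within the 250 bases. The GENCODE transcript of Hist1h4b starts further on, at chr13:23757013, and the bases between the RefSeq and GENCODE starts were not searched. Of 13 tested members with TATAAA, 12 were called lower and 0 higher, with a median log2 change of -1.04; of 18 without it, 12 were called lower and 1 higher, with a median of -0.72. For the octamer, 4 of 6 were called lower and 1 higher, against 20 of 25 and 0 without it. For CCAAT, 21 of 28 were called lower and 1 higher, against 3 of 3 and 0 without it. These counts include the tested members that passed the filter on low counts only through WT.

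The variant histones, which come mostly from single genes with polyadenylated mRNA, were called in both directions. Of 20 listed, 11 were tested, 5 called lower and 3 higher, beside 30.9% and 33.5% of all tested genes, with a median log2 change of -0.06. Cenpa, the centromeric H3, had 83.6, 86.2 and 86.1 CPM in R783H and 146, 145 and 139 CPM in WT, and fell by 0.75 (SE 0.04). H2afz, the H2A.Z found at promoters, had 82.0, 79.8 and 79.6 CPM in R783H and 131, 126 and 125 CPM in WT, and fell by 0.66 (SE 0.04). H2afj fell by 0.53 and H2afx, the H2A.X phosphorylated at DNA breaks, by 0.45, with H2afx at 220 to 241 CPM in R783H and 304 to 324 CPM in WT and at -0.20 with the length and GC offset. H2afv, another H2A.Z gene, fell by 0.17 (SE 0.05). Its call was lost in 3 of 17 alternatives, among them without WT A (-0.15) and with library size alone (-0.09).

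The 3 variants called higher were 2 macroH2A genes and a linker histone. H2afy, a macroH2A of silent chromatin, had 237, 257 and 247 CPM in R783H and 203, 203 and 195 CPM in WT, a log2 change of 0.30 (SE 0.04). H2afy2 rose by 0.21 (SE 0.06). H1f0, the linker histone associated with cells that leave the cycle, had 69.7, 72.9 and 69.0 CPM against 56.0, 55.5 and 56.0 CPM, or 0.34 (SE 0.05). In these 3 genes all R783H libraries were above all WT libraries. Not called were H3f3a at -0.06, H3f3c at -0.04 and the linker histone H1fx at 0.03. With the length and GC offset H3f3c (0.18, edgeR adjusted p = 0.021) and H1fx (0.43, adjusted p = 0.0029) were called higher. H3f3b, which also encodes H3.3, had 0.0665 to 0.371 CPM and was not tested; H3f3a, H3f3b and H3f3c have 10, 2 and 7 near-identical genes in the annotation, so their values are uncertain.

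Set side by side, the sum of the replication-dependent genes was lower by more than that of the variants. The variants summed to 958.5, 1016 and 979 CPM in R783H and 1177, 1151 and 1108 CPM in WT, or 0.860-fold. Per library, the log2 ratio of the replication-dependent to the variant sum was 0.52 lower in R783H than in WT, with no overlap between the groups (exact permutation test, two-sided, p = 0.1, the smallest possible). Without Hist1h2ap and Hist1h2ao it was 0.56 lower, also without overlap.

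Genes that act on histone mRNA or protein were described from lists, whose counts stand against 30.9% of all tested genes called lower and 33.5% higher. Of 24 genes for 3′ processing of histone mRNA, 10 were called lower and 5 higher, with a median log2 change of -0.10. Slbp, the stem-loop binding protein, had 106, 98.1 and 105 CPM in R783H and 150, 148 and 148 CPM in WT, and fell by 0.53 (SE 0.05, edgeR adjusted p = 2.0e-06). Srrt (Ars2), which links the cap-binding complex to 3′ end processing, fell by 0.90 (SE 0.04), from 442 to 451 CPM in WT to 231 to 242 CPM in R783H. Snrpb, a core protein of small nuclear ribonucleoproteins, fell by 0.85 (SE 0.05). Rnu7, the U7 RNA itself, had 0.333, 0.317 and 0.236 CPM in R783H and 0.643, 0.489 and 0.890 CPM in WT. It fell by 1.16 (SE 0.34), a call lost without WT C (-0.92). Rnu7 passed the filter on low counts only through its WT libraries and is among the 10 called lower.

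In histone mRNA decay, 9 of 16 genes were called lower and 5 higher. Zcchc6, a uridylyltransferase that marks RNA ends, rose by 0.66 (SE 0.08), with 51.5 to 64.6 CPM in R783H and 36.2 to 40.01 CPM in WT. Xrn1, the 5′ to 3′ exonuclease, rose by 0.60 (SE 0.08), or 0.26 with the length and GC offset. Lsm1, of the ring that binds the oligouridylated end, fell by 0.55 (SE 0.06).

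For transcription of histone genes, 8 of 17 were called lower and 3 higher, with a median log2 change of 0.00. Ccne1, the cyclin E that with Cdk2 activates the histone locus factor Npat, had 97.0, 104 and 95.1 CPM in R783H and 314, 308 and 294 CPM in WT, and fell by 1.63 (SE 0.05). Ccne2 fell by 0.82 (SE 0.09) and Yy1 by 0.40 (SE 0.05). Of 30 listed S-phase genes, 23 were called lower and 2 higher, with a median of -0.34 and sums of 7173 to 7722 CPM in R783H and 9158 to 9560 CPM in WT. The S-phase list shares genes with that for transcription of histone genes, Ccne1 among them, so their counts are not independent. Rrm2, the ribonucleotide reductase subunit, fell by 1.01 (SE 0.05) and Ccna2, cyclin A2, by 0.86 (SE 0.04).

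Histone chaperones, which carry histones to and from DNA, were called lower in 21 of 27 tested genes and higher in 3, with a median of -0.33. Set, a chaperone of core and linker histones, had 404, 405 and 446 CPM in R783H and 765, 790 and 823 CPM in WT, and fell by 0.92 (SE 0.05). Nap1l1, a chaperone of H2A and H2B, fell by 0.71 (SE 0.04). Ubn1, of the HIRA complex that deposits H3.3, rose by 0.88 (SE 0.05), from 47.5 to 50.6 CPM in WT to 87.4 to 93.1 CPM in R783H.

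**Figure D5:**
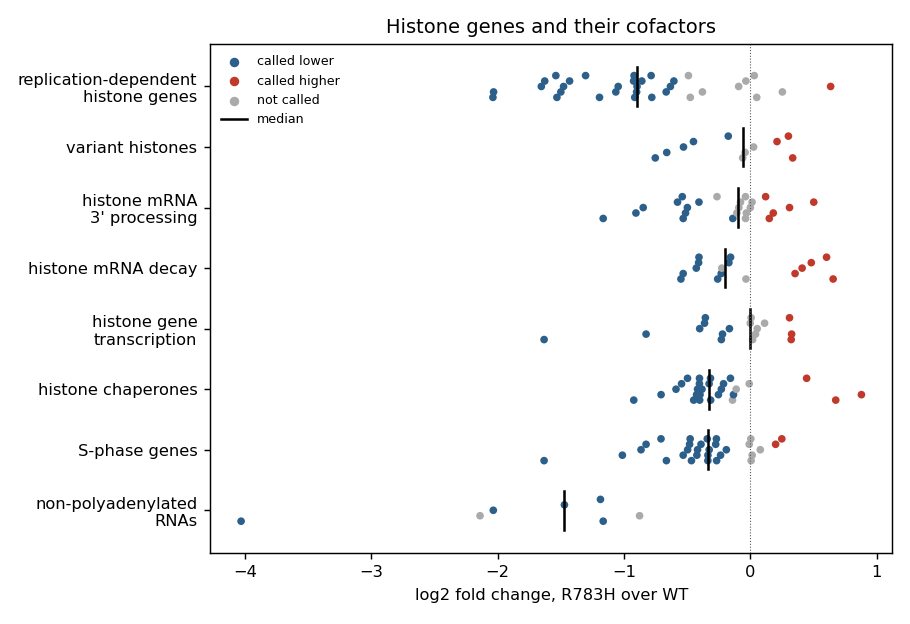
Log2 fold change of R783H over WT of each tested gene in 8 lists; blue is called lower, red called higher, grey not called, and black lines are medians. The replication-dependent histones have a median of -0.90, the S-phase genes -0.34, the variant histones -0.06 and the non-polyadenylated RNAs -1.47.

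The tested RNAs without a regular poly(A) tail also had negative log2 changes. Of 15 listed in the table, such as the RNA of RNase P and the mitochondrial ribosomal RNAs, 7 were tested and 8 were not. Of the tested, 5 were called lower and 0 higher, beside 30.9% and 33.5% of all tested genes. Their log2 changes ran from -4.03 to -0.88, with a median of -1.47. The lowest mean level among the tested was 0.365 CPM, under the 0.377 CPM that the filter asks of a library. Not all 7 therefore had every library over the filter, and an RNA lower in R783H can pass through its WT libraries. These counts and the median describe the RNAs that passed. All 15 summed to 404, 338 and 415 CPM in R783H and 868, 928 and 983 CPM in WT, without overlap. The RNA with the highest mean over all libraries had 508 CPM, a large part of this sum. The part of these RNAs, of library depth and of transcript length in the values of the histone genes was not tested beyond the alternative settings. With an offset for transcript length and GC content, 18 of the 33 tested members were called lower and 1 higher, with a median of -0.66, and with libraries thinned to equal depth 19 of 28 were called lower and 1 higher.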

How the data were processed

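Poly(A)-selected RNA of 6 libraries was sequenced. Per the submitters' processing notes, CASAVA 1.4, HISAT2 and SAMtools were used with the build mm10; the counting tool, its annotation, the use of strand and the treatment of reads with several matches are not given in the sources used here. The authors deposited raw read counts per Entrez gene, with 1 column per library per the file headers; 0 other columns were left unused. Symbols came from RefSeq (25275 of 27179 identifiers), transcripts from GENCODE M21, and near-identical genes from BLAST 2.17.0.

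Low counts were removed by the defaults of edgeR's filterByExpr (minimum count 10, minimum total 15). Libraries were scaled with TMM and tested with edgeR 4.0.16 (R 4.3.3) by the quasi-likelihood test on group, with Benjamini-Hochberg adjustment over 14199 genes; a call is an adjusted p under 0.05. SE is the log2 change divided by the root of F. Counts were summed per library over members, divided by the scaled library size, and compared by exact two-sided permutation (SciPy 1.17.1). The common biological variation was 5.45%, and the steps were tested on simulated data. Alternatives included DESeq2 1.42.0 and limma 3.58.1. Reads lack molecular identifiers, so counting error understates the uncertainty.

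Per histone type, the 4 genes with the highest mean CPM, and any with the largest change among those averaging 50 counts, are given by library; every variant of at least 1 CPM is named, and from each list Slbp and the called genes that changed most, at most 3. Any other named gene was chosen after its values were seen. Members and lists were chosen with earlier results of these data known. Rows of 2 histone pseudogenes (Hist1h2al and Hist3h2bb) and of the testis gene Hist1h1t were left out of the members; the latter is among the variants.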

Additional observations from a re-analysis of the deposited data

How the results depend on the processing

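The sum over the members stayed lower in R783H in all alternatives run (log2 change -0.79 to -0.69 with 1 library left out). Of 24 members called lower, 13 kept the call in each of 17 alternatives in which they were tested, and 0 changed sign. The count called lower was 13 of 18 where at least 10 counts were required in every library, 18 with DESeq2, 35 of 64 without a filter, and 19 to 25 with 1 library left out. Fewer genes were tested under the stricter filter. The count called higher was 0 with DESeq2 and 0 to 1 with 1 library left out. The median log2 change of members was -0.66 with the length and GC offset, -0.77 with at least 10 counts in every library, -0.80 thinned, -0.82 with library size alone, -1.01 without a filter and -0.997 to -0.82 with 1 library left out. Variant histones called higher were 5 with the offset, and the extended class changed by -0.53 with library size alone. Apart from the filter, the cause was not tested.

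Small changes of genes not called in the fit of all libraries turned sign. Hist1h3g was 0.29 with the offset, 0.046 with library size alone, 0.016 with limma-voom, 0.25 thinned and -0.25 to 0.33 with 1 library left out. H3f3a was 0.022 and H3f3c 0.041 with library size alone, and H3f3c was 0.18 with the offset, where it was called higher, as was H1fx at 0.43. With 1 library left out, Hist2h2be ran from -0.12 to 0.56, Hist1h2bq from -0.59 to 0.18, Hist1h2ah from -0.29 to 0.29, Hist1h2bc from -0.080 to 0.17, H1fx from -0.11 to 0.13 and H3f3c from -0.093 to 0.0062. Library letters are shared between the groups. Deviations of same-letter libraries correlated at -0.07, 0.01 and 0.09, and those of libraries with different letters at -0.13 to 0.13. With so few libraries in a group, these values cannot show whether the libraries were handled in pairs. With the replicate block, 24 members were called lower and 1 higher, with a median of -0.90. Most single members rest on under 50 counts per library, which limits the precision of their changes.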

Other observations

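Among the rows left out as pseudogenes, Hist1h2al (Entrez 667728, H2af-ps2 in RefSeq) had on average more counts than any member but Hist1h2ap and Hist1h2ao. It had 8.71, 9.83 and 9.01 CPM in R783H and 10.5, 10.6 and 11.5 CPM in WT, from 213 to 279 counts per library. The groups did not overlap, and the log2 change was -0.25 (SE 0.09, edgeR adjusted p = 0.026). The members with the most counts, Hist1h2ap and Hist1h2ao, were at -0.67 and -0.78 in the same fit, and at -0.30 and -0.42 with the length and GC offset; the difference from Hist1h2al was not tested.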
